A study of Homo sapiens with 12 samples.

Results

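Late granule and neutrophil maturation genes are the genes whose products fill the specific and gelatinase granules of maturing neutrophils, sit in their membranes or accumulate in the cytosol of the mature cell. The 10 genes described here were LTF, CAMP, LCN2, OLFM4, LYZ, MMP8, MMP9, CEACAM8, CD177 and S100A9, of 20404 genes with a 5-hydroxymethylcytosine (5hmC) region. A region belonged to a gene when it lay inside it or, by the deposited distance, at most 5000 bases upstream of its start. By this rule the 10 genes held 24 of 327931 5hmC regions, and 3 of them (LTF, LYZ and CD177) held 1 each of the 65535 listed 5-methylcytosine (5mC) regions.

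The cells were HL-60, an established human promyelocytic leukemia line. The differentiated cells had received 1.5% (211 mM) dimethyl sulfoxide (DMSO) for 7 days and were sorted as viable and positive for CD11b, and the undifferentiated cells had no DMSO and were sorted as viable and CD11b-negative. Each state had 3 biological replicates of this 1 line, and each replicate's sheared DNA was shared between an antibody against 5mC (MeDIP-seq) and an antibody against 5hmC (hMeDIP-seq), which gave 12 libraries. The 5hmC regions held 13010267 to 32495733 counts in differentiated libraries and 15688562 to 33693880 in undifferentiated libraries. Captured DNA depends on CpG density and on the copies of a locus as well as on the marks, no input library was analysed here, and in sorted bulk DNA a mark on fewer cells and less of it per cell cannot be told apart. No RNA was measured, so the values do not show whether a gene was expressed or whether the labelled cell states carried their defining transcripts.

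Neutrophils make their granules in an order. Promyelocytes make primary granules with myeloperoxidase, myelocytes and metamyelocytes make specific granules, and band cells make gelatinase granules. The transcription factor C/EBP epsilon is required for specific granule genes, and HL-60 cells are known for making primary granules while forming few or no specific granules. 5mC is the methylated base of CpG sites and 5hmC is the product of its oxidation by TET enzymes, often found over bodies and distal elements of active genes.

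The DNA just before the starts of these genes was poor in CpG. RefSeq (GRCh38.p14) had a start window for 7 of the 10 genes, and the 250 bases before the start held 0 to 5 CpG (median 2), against a median of 11 over all 35116 windows of the table. LTF had 3 start windows, of which the outermost was counted, and the other 6 genes had 1. That window need not be at the LTF start behind the deposited distances, which is not named. MMP9, LYZ and CD177 had no entry. Shown are the windows of CAMP, whose 5hmC region lay nearest to a start among the upstream regions (438 bases), and of LCN2 and S100A9, whose upstream regions moved in opposite directions. Capitals mark CpG. They lie on the plus strand at chr3:48223245-48223494 for CAMP, chr9:128149203-128149452 for LCN2 and chr1:153357604-153357853 for S100A9, all GRCh38.p14.
CAMP: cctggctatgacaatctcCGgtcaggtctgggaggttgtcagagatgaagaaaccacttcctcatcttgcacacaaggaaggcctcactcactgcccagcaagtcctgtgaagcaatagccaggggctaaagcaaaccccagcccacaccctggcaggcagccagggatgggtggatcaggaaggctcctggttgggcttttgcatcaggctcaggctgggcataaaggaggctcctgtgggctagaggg
LCN2: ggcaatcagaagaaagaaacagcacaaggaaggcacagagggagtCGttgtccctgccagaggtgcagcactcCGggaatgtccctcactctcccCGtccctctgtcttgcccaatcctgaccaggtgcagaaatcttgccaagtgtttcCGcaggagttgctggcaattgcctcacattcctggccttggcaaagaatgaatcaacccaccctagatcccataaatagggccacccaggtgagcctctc
S100A9: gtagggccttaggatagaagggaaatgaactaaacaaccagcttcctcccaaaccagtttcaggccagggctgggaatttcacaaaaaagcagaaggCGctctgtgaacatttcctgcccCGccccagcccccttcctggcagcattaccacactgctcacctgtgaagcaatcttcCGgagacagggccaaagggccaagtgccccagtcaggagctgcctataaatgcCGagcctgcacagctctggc
The letters TTGCNNAA, a form of the site that C/EBP factors bind, were searched on both strands as the single motif. They were found in the windows of LCN2 and MMP8, 2 of 7, and in 9.05% of all windows. By the deposited distances the upstream regions of CAMP, LCN2 and S100A9 lay beyond these 250 bases, so the printed DNA was outside them.

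The late granule genes did not move as a block in 5hmC. Summed per gene, 5hmC rose in differentiated cells at OLFM4, MMP9 and CD177, fell at LYZ and MMP8, and did not pass at LTF, CAMP, LCN2, CEACAM8 and S100A9. Fold changes are log2 values, differentiated over undifferentiated, tested with the edgeR quasi-likelihood test and Benjamini-Hochberg adjustment over all genes or regions of a mark, with a threshold of 0.05. The 5 calls of 10 stand beside 51.6% of all genes called in either direction, 25.7% higher and 25.8% lower, so their number was near that of genes in general. The median over the 10 genes was 0.12 and over all genes 0.01. Differentiated and undifferentiated libraries were fully apart at 6 of the 10 genes, and at 57.1% of all genes.

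**Figure D1:**
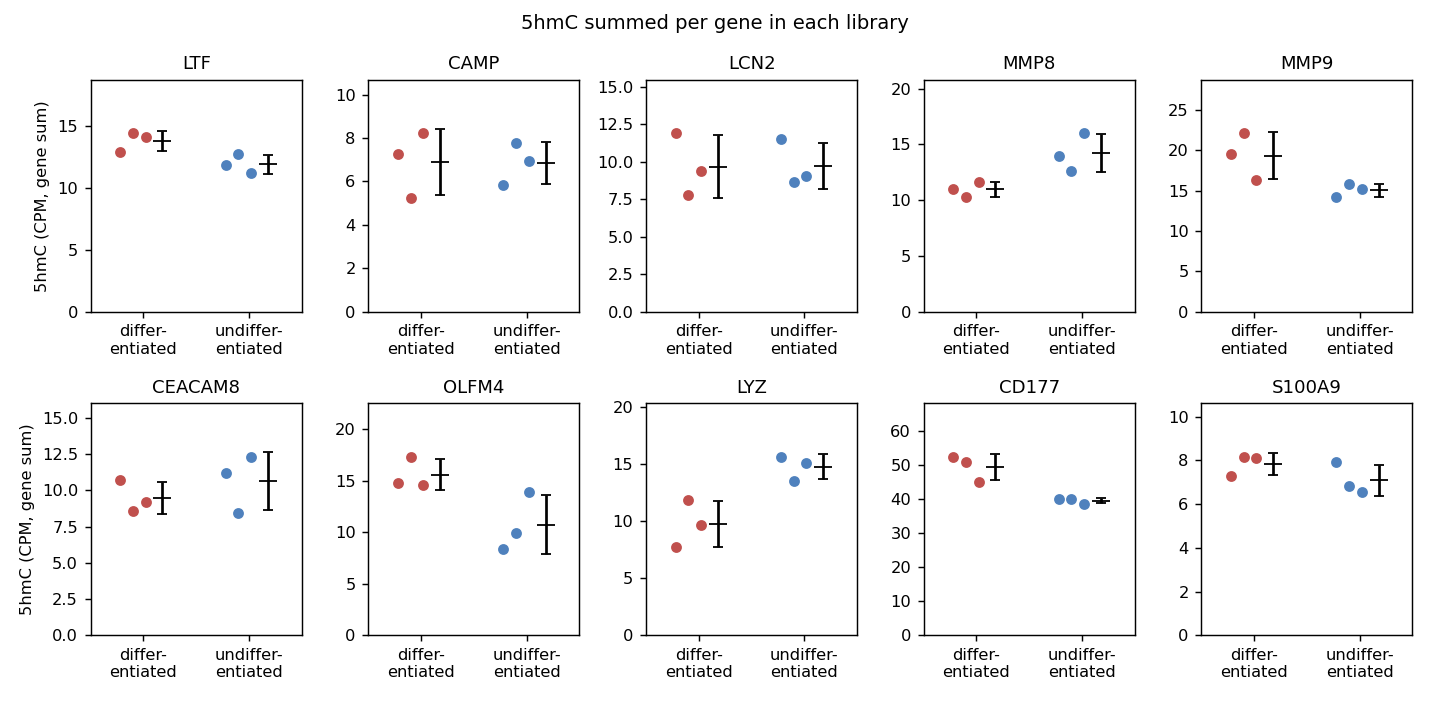
5hmC per gene in CPM, the gene table's counts after scaling each library to the same size, with points for the 3 differentiated (left) and 3 undifferentiated (right) libraries of each gene and bars for the mean and SD. OLFM4, MMP9, CD177 and LTF have all differentiated libraries above the undifferentiated ones, LYZ and MMP8 have them below, and the libraries of the other 4 genes overlap.

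Among the regions, 6 rose, 7 fell and 11 did not pass, where 50.3% of all 5hmC regions were called, 27% higher and 23.3% lower. Their median was −0.08 and that of all regions −0.04. In 15 of the 24 regions every library of one state lay above every library of the other, as in 52.2% of all regions. DESeq2's Wald test called 3 of the 24 higher and 0 lower, with 6 higher and 5 lower at an unadjusted p under 0.05. Over all 327931 regions it called 66484, where the main fit had called 164889 of 327901. Without undifferentiated replicate 1 the edgeR test called 3 higher and 2 lower, without differentiated replicate 1 it called 5 and 2, and without differentiated replicate 3 it called 5 and 3. In that order these fits called 102900 of 327903, 122674 of 327925 and 105245 of 327920 regions in all. Calls thus became fewer among regions in general as well.

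**Figure D2:**
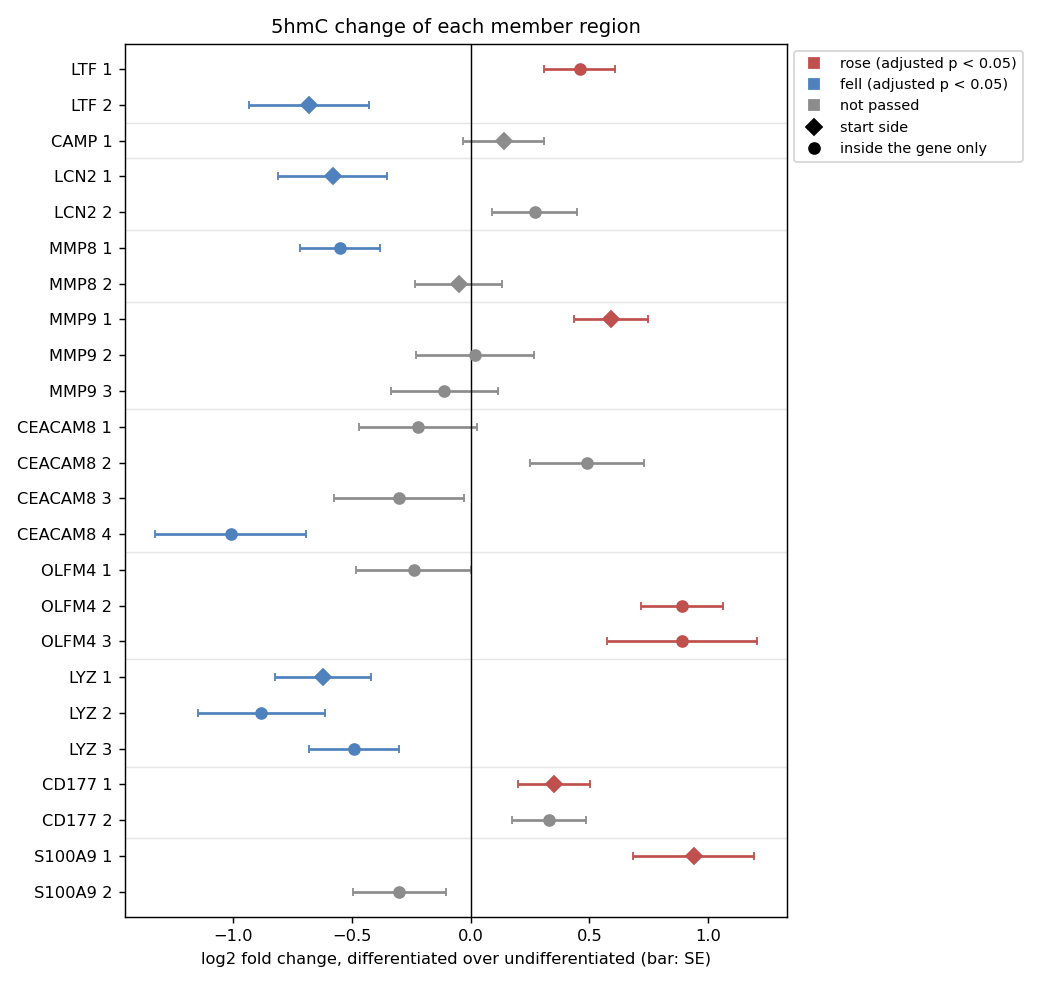
Log2 fold change (differentiated over undifferentiated) of each of the 24 5hmC regions with its SE, numbered within a gene by hg19 position from low to high, with diamonds for regions upstream of or over a start and circles for regions only inside a gene. The rises at OLFM4 2 and 3 (0.89 each) and S100A9 1 (0.94) and the fall at CEACAM8 4 (−1.01) are the largest.

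LTF encodes lactoferrin, the iron-binding protein of specific granules, and its 2 regions moved in opposite directions. The region inside the gene (hg19 chr3:46483201-46483800) had 5.07, 5.64 and 5.54 CPM in differentiated libraries, against 3.85, 4.2 and 3.74 CPM in undifferentiated libraries. Every differentiated library was above every undifferentiated one. The region rose by 0.46 (SE 0.15, adjusted p = 0.00988), but not without undifferentiated replicate 1 (0.44, adjusted p = 0.0611) or without TMM scaling (0.25, adjusted p = 0.155). The upstream region (chr3:46509001-46509400, 2403 bases from a start) had 0.902, 0.985 and 0.939 CPM in differentiated libraries, against 1.55, 1.54 and 1.39 CPM in undifferentiated libraries. Here every differentiated library was below every undifferentiated one, with tight values in each state. It fell by 0.68 (SE 0.254, adjusted p = 0.023), on 11 to 30 counts per differentiated library, against 23 to 57 per undifferentiated library. This call ended without differentiated replicate 1 (−0.66), differentiated replicate 3 (−0.68) or undifferentiated replicate 1 (−0.65). The deposited distance does not say which LTF start it was measured from, and from a farther start the upstream region could lie inside the gene. The sum over both regions was 13.8 ± 0.801 CPM in differentiated libraries and 11.9 ± 0.779 CPM in undifferentiated libraries (SD, n = 3 each), with a fold change of 0.21 that did not pass (adjusted p = 0.127). The region inside LTF was the densest of the 24, at 7.79 CPM per kb over all libraries, above 97.7% of 5hmC regions.

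CAMP encodes the precursor of the antimicrobial peptide LL-37, stored in specific granules. Its only region lay 438 bases upstream (chr3:48263001-48264400) and had 3.38, 2.42 and 3.79 CPM in differentiated libraries, against 2.66, 3.52 and 3.2 CPM in undifferentiated libraries. The states overlapped, and the fold change of 0.14 (SE 0.17, adjusted p = 0.493) did not pass. Its sign turned with other scalings and when differentiated replicate 3 (−0.03) or undifferentiated replicate 1 (−0.01) was left out.

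LCN2 encodes the siderophore-binding lipocalin NGAL. Its upstream region (chr9:130909201-130910400, 1333 bases from the start) had 1.3, 1.34 and 1.1 CPM in differentiated libraries, against 1.93, 1.69 and 1.75 CPM in undifferentiated libraries. All differentiated libraries were below the undifferentiated ones, and the region fell by 0.58 (SE 0.23, adjusted p = 0.0311). It was sparse, with 1.26 CPM per kb (percentile 3.42 of 5hmC regions) and 15 to 35 counts per differentiated library, against 29 to 71 per undifferentiated library. The call ended without differentiated replicate 1 (−0.63), differentiated replicate 3 (−0.46) or undifferentiated replicate 1 (−0.51). The region inside LCN2 (chr9:130913201-130913800) had 4.23, 2.24 and 3.22 CPM in differentiated libraries, against 3.31, 2.22 and 2.41 CPM in undifferentiated libraries. These overlapped, and the fold change of 0.27 (SE 0.178, adjusted p = 0.189) did not pass. Summed over both, LCN2 stood at −0.03 (SE 0.16, adjusted p = 0.895), although its part within 2000 bases of the start alone fell (−0.67, adjusted p = 0.0154).

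OLFM4 encodes olfactomedin 4, a glycoprotein found in the specific granules of a subset of neutrophils. It had the largest rise per gene of the 10, with 14.8, 17.3 and 14.6 CPM in differentiated libraries, against 8.33, 9.93 and 13.9 CPM in undifferentiated libraries. The states did not overlap, but undifferentiated replicate 3 came close to the differentiated libraries. The fold change was 0.58 (SE 0.159, adjusted p = 0.00831), and without undifferentiated replicate 1 it was 0.38 (adjusted p = 0.0829). The rise lay in 2 of its 3 regions, all inside the gene. The strongest (chr13:53608801-53609600) had 4.96, 5.28 and 4.13 CPM in differentiated libraries, against 2.2, 2.07 and 3.62 CPM in undifferentiated libraries. It rose by 0.89 (SE 0.172, adjusted p = 7.14e-05), the smallest adjusted p of the 24 regions, and passed in all 11 alternatives tried, with fold changes of 0.60 to 1.11. The region at chr13:53621201-53621600 rose by 0.89 as well (SE 0.315, adjusted p = 0.0177), on 15 to 37 counts per differentiated library, against 13 to 17 per undifferentiated library. Its call ended without undifferentiated replicate 1 (0.42) or differentiated replicate 3 (0.83). The region just before the strongest (chr13:53608001-53608400) had a fold change of −0.24 (adjusted p = 0.398) with overlapping libraries.

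LYZ encodes lysozyme, which cleaves bacterial cell walls, is stored in all 3 granule types and is also made by monocytes. It had the largest fall per gene of the 10, with 7.76, 11.8 and 9.65 CPM in differentiated libraries, against 15.6, 13.5 and 15.1 CPM in undifferentiated libraries. No differentiated library reached the lowest undifferentiated one. The fold change was −0.64 (SE 0.136, adjusted p = 0.00183), and LYZ passed in all 14 alternatives, with −0.90 to −0.52. All 3 of its regions fell. The upstream region (chr12:69739801-69740800, 1335 bases from the start) had 1.24, 1.7 and 1.88 CPM in differentiated libraries, against 2.85, 2.17 and 2.41 CPM in undifferentiated libraries, a fall of 0.62 on the log2 scale (SE 0.202, adjusted p = 0.01). The region at chr12:69744401-69744800, inside the gene, had 0.564, 1.25 and 0.814 CPM in differentiated libraries, against 1.65, 1.35 and 1.51 CPM in undifferentiated libraries, and fell by 0.88 (SE 0.267, adjusted p = 0.0061). The region at chr12:69747001-69747600, also inside it, fell by 0.49 (SE 0.191, adjusted p = 0.0286). Each of the 3 calls ended without differentiated replicate 1 (−0.47, −0.70 and −0.45) and without undifferentiated replicate 1 (−0.48, −0.78 and −0.52), and the last also without differentiated replicate 3 (−0.37) or undifferentiated replicate 3 (−0.43). The fall summed over LYZ thus held with each library left out in turn while those of its single regions did not.

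The metalloproteinase genes went apart. MMP8 encodes the neutrophil collagenase of specific granules, and MMP9 encodes gelatinase B, the enzyme that names the gelatinase granules. MMP8 had 11, 10.3 and 11.6 CPM in differentiated libraries, against 14, 12.6 and 16 CPM in undifferentiated libraries. All differentiated libraries were lower, and the gene fell by 0.34 (SE 0.119, adjusted p = 0.029). This call ended without differentiated replicate 1 (−0.33), undifferentiated replicate 1 (−0.35) or undifferentiated replicate 3 (−0.27). Its region inside the gene (chr11:102586801-102587400) had 2.59, 2.78 and 2.5 CPM in differentiated libraries, against 3.77, 3.52 and 4.1 CPM in undifferentiated libraries. It fell by 0.55 (SE 0.167, adjusted p = 0.0066) and kept its call without any single library, while DESeq2's Wald test gave −0.53 (adjusted p = 0.0747). The upstream region, 3916 bases from the start (chr11:102599601-102600800), had a fold change of −0.05 (SE 0.182, adjusted p = 0.829) with overlapping libraries.

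MMP9 had 19.5, 22.1 and 16.3 CPM in differentiated libraries, against 14.2, 15.8 and 15.2 CPM in undifferentiated libraries. The states did not overlap, and the gene rose by 0.32 (SE 0.116, adjusted p = 0.0345), a call that ended without differentiated replicate 1 (0.29), differentiated replicate 2 (0.24), undifferentiated replicate 1 (0.27) or undifferentiated replicate 3 (0.33). The rise lay over the start of the gene. The region there (chr20:44636001-44638200, deposited distance 0) had 6.65, 5.55 and 4.85 CPM in differentiated libraries, against 3.34, 4.1 and 3.86 CPM in undifferentiated libraries. Each differentiated library exceeded each undifferentiated one, and the region rose by 0.59 (SE 0.155, adjusted p = 0.00189) and kept its call without any single library. The regions farther in (chr20:44640201-44640600 and chr20:44643801-44644400) had fold changes of 0.02 and −0.11 (adjusted p = 0.936 and 0.672). The 3 MMP9 regions were the only ones of the 24 within 2000 bases of a CpG island, and the second overlapped an island.

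The membrane protein genes of the set were CEACAM8 and CD177. CEACAM8 encodes CD66b, an adhesion molecule of specific granule membranes, and its 4 regions were each also assigned to LOC100996307 and lie among closely similar CEACAM genes, so its counts are uncertain. The gene had 10.7, 8.55 and 9.18 CPM in differentiated libraries, against 11.2, 8.44 and 12.3 CPM in undifferentiated libraries, and its fold change of −0.17 (SE 0.15, adjusted p = 0.361) did not pass. The region at chr19:43096601-43097000 had 0.676, 0.537 and 0.438 CPM in differentiated libraries, against 1, 1.06 and 1.21 CPM in undifferentiated libraries, from 6 to 14 and 20 to 37 counts. It fell by 1.01 (SE 0.318, adjusted p = 0.00809), but not without differentiated replicate 3 (−0.78, adjusted p = 0.119). The other 3 regions ranged from −0.30 to 0.49 and did not pass.

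CD177 encodes a surface antigen that holds proteinase 3 on the neutrophil membrane. It had 52.5, 50.9 and 45.1 CPM in differentiated libraries, against 40.1, 40.1 and 38.8 CPM in undifferentiated libraries, the highest sums of the 10 genes. The states did not overlap, and the gene rose by 0.30 (SE 0.0694, adjusted p = 0.00311) and kept its call without any single library. The fold changes of its 2 regions were alike. The region over the start (chr19:43858201-43859600) had 5.41, 5.02 and 4.7 CPM in differentiated libraries, against 3.74, 3.96 and 4.16 CPM in undifferentiated libraries, and rose by 0.35 (SE 0.152, adjusted p = 0.0474). That call was narrow and was kept, of the 6 libraries, only without differentiated replicate 2: leaving out another gave 0.29 to 0.42 and an adjusted p of 0.0524 to 0.19. The region farther in (chr19:43861201-43863600) had 19, 18.4 and 16.1 CPM in differentiated libraries, against 14.5, 14.2 and 13.7 CPM in undifferentiated libraries, a fold change of 0.33 (SE 0.154, adjusted p = 0.0681) that passed without differentiated replicate 2 (0.29) or 3 (0.41). RefSeq lists a pseudogene copy of CD177, CD177P1, on the same chromosome, and the labels and headers do not say how reads that match both were counted.

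S100A9 encodes a calcium-binding protein that pairs with S100A8 as calprotectin in the cytosol. The region 3931 bases upstream of its start (chr1:153325201-153326400) had 1.75, 1.16 and 1.78 CPM in differentiated libraries, against 0.814, 0.916 and 0.845 CPM in undifferentiated libraries. Every differentiated library was above the undifferentiated ones, which were nearly equal. The region rose by 0.94 (SE 0.255, adjusted p = 0.00252) and passed in all 11 alternatives, with an adjusted p of at most 0.0408. It was also the sparsest of the 24, with 1.01 CPM per kb, below nearly all 5hmC regions (percentile 0.354), and 13 to 57 counts per differentiated library, against 14 to 30 per undifferentiated library. The region inside the gene (chr1:153332001-153332600) had 1.63, 2.6 and 1.94 CPM in differentiated libraries, against 2.79, 2.17 and 2.17 CPM in undifferentiated libraries. It overlapped and did not pass (−0.30, SE 0.196, adjusted p = 0.177), although it passed as lower without TMM scaling (−0.51, adjusted p = 0.0301). Summed over both regions, S100A9 had a fold change of 0.11 (SE 0.142, adjusted p = 0.513).

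By position, 3 of the 8 regions upstream of or over a start rose (MMP9, CD177 and S100A9), 3 fell (LTF, LCN2 and LYZ) and 2 did not pass (CAMP and MMP8). Of all 25792 regions so placed 47.8% were called, 23.9% higher and 23.9% lower. Of the 16 regions only inside a gene, 3 rose, 4 fell and 9 did not pass, where 49.6% of all 146785 such regions were called, 24.3% higher and 25.2% lower. OLFM4 and CEACAM8 had no region on the start side.

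In 4 of the genes with regions on both sides, a test of the balance between the start side and the rest of the gene passed. LTF and LCN2 carried a smaller share of their 5hmC counts on the start side in differentiated cells, and MMP9 and S100A9 a larger one. This comparison was chosen after the region values had been seen and reuses the same counts, so its p-values add no independent support to the region calls. CAMP, OLFM4 and CEACAM8 had regions on 1 side only and were not tested. Because both parts of a gene come from the same library, the share does not depend on how libraries are scaled. The test was the difference between the fold changes of the 2 parts in 1 edgeR fit over 11737 genes, of which 32.7% passed.

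LTF had a start-side share of 15.1%, 14.9% and 14.5% in differentiated libraries, against 28.6%, 26.9% and 27.1% in undifferentiated libraries. The values within a state were nearly equal and the states lay far apart. They rest on 11 to 30 start-side counts per differentiated library, against 23 to 57 per undifferentiated library, too few to read the near equality as precision. The difference of fold changes was −1.15 (SE 0.279, adjusted p = 0.00169) and passed in all 7 alternatives, with −1.17 to −1.09. S100A9 had 51.7%, 31% and 47.9% in differentiated libraries, against 22.6%, 29.7% and 28% in undifferentiated libraries. Differentiated replicate 2 lay just above the undifferentiated libraries and the other two well above. The difference was 1.26 (SE 0.33, adjusted p = 0.00324), and 1.02 (adjusted p = 0.0682) without undifferentiated replicate 1.

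LCN2 had 28.8 ± 7.61% on the start side in differentiated libraries and 40.7 ± 3.42% in undifferentiated libraries (SD, n = 3 each), with overlapping values. Its difference was −0.85 (SE 0.289, adjusted p = 0.0204), which no longer passed without differentiated replicate 1 (−0.72), differentiated replicate 3 (−0.77) or undifferentiated replicate 2 (−0.78). MMP9 had 64.1 ± 9.46% in differentiated libraries and 54.7 ± 3.01% in undifferentiated libraries, again overlapping. Its difference of 0.64 (SE 0.232, adjusted p = 0.0301) no longer passed without differentiated replicate 1 (0.39), differentiated replicate 3 (0.66), undifferentiated replicate 1 (0.51) or undifferentiated replicate 3 (0.66). For MMP8 the difference was 0.50 (SE 0.245, adjusted p = 0.11), and it passed without differentiated replicate 2 (0.62). CD177 and LYZ, whose regions had fold changes of the same sign, had differences of 0.05 (95% interval −0.25 to 0.36) and 0.0033 (−0.64 to 0.65), which did not pass. The LYZ interval still spans shifts as large as the one of MMP9.

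**Figure D3:**
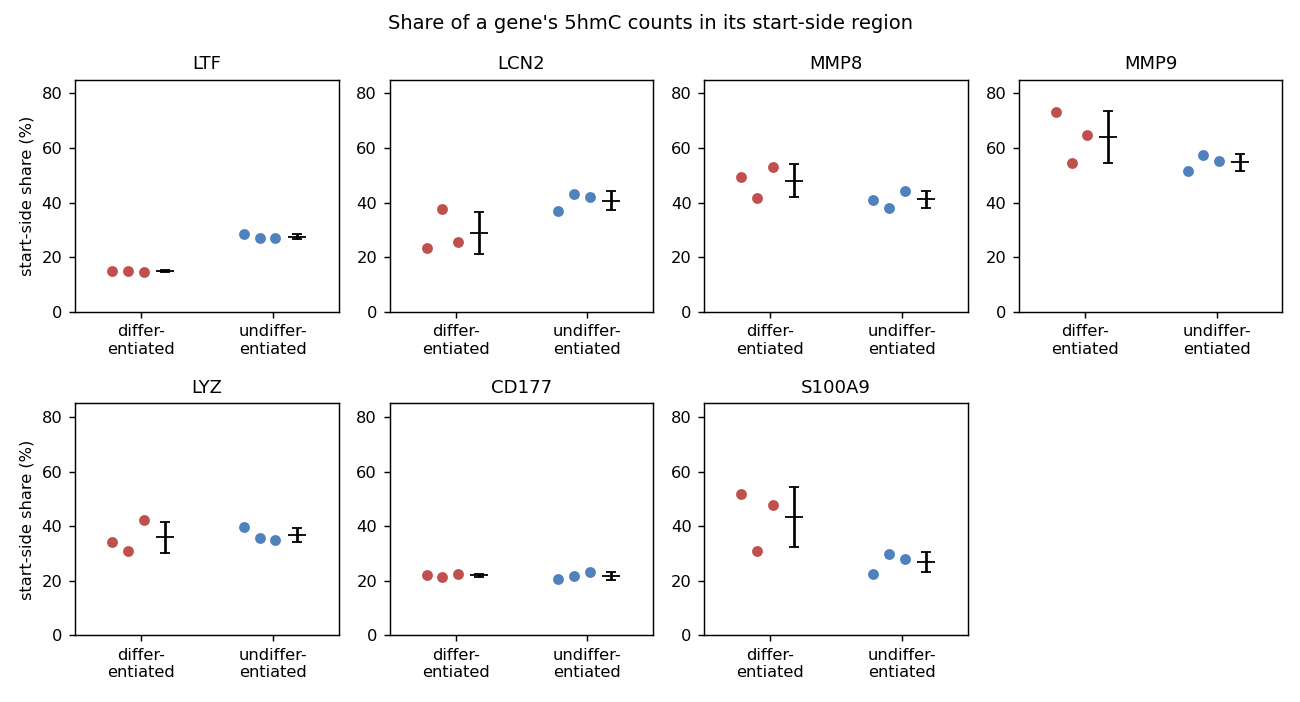
Share of a gene's 5hmC counts (%) in its region upstream of or over the start, with points for the 3 differentiated (left) and 3 undifferentiated (right) libraries and bars for the mean and SD. LTF has 14.5 to 15.1% in differentiated and 26.9 to 28.6% in undifferentiated libraries, S100A9 has all differentiated libraries above the undifferentiated ones, and the other 5 genes overlap.

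Listed 5mC regions lay at only 3 of the 10 genes, and at LYZ and CD177 5mC moved the way 5hmC did. The 5mC table held the regions with the smallest p-values only, so the other 7 genes were not measured for 5mC here. The 2 calls in 3 regions stand beside 72.7% of all listed regions called (35.7% higher and 37% lower), and the 3 calls in 3 genes beside 84.3% of genes (41% higher and 43.2% lower). Libraries of the 2 states were apart in all 3 regions and all 3 genes, beside 86.1% of listed regions and 77.8% of genes. In such a selected list nothing can be read from these counts, and the p-values can be too small.

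At LYZ the same 1000 bases upstream (chr12:69739801-69740800) were listed for both marks. For 5mC they had 4.39, 3.85 and 4.23 CPM in differentiated libraries, against 7.27, 5.71 and 5.91 CPM in undifferentiated libraries. All differentiated libraries were lower, and 5mC fell by 0.60 (SE 0.2, adjusted p = 0.0307). The call was kept, of the 6 libraries, only without undifferentiated replicate 2, and leaving out another gave −0.64 to −0.48. At CD177 the 5mC region (chr19:43861801-43863600) shared its whole 1800 bases with the 5hmC region inside the gene. It had 14.6, 15.7 and 17.7 CPM in differentiated libraries, against 11.7, 13.1 and 10.5 CPM in undifferentiated libraries. The states did not overlap, and 5mC rose by 0.45 (SE 0.126, adjusted p = 0.01), but not without differentiated replicate 3 (0.36), undifferentiated replicate 3 (0.37) or TMM scaling (0.19). The median over all listed 5mC regions was 0.22 with TMM scaling and −0.03 with library totals alone.

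**Figure D4:**
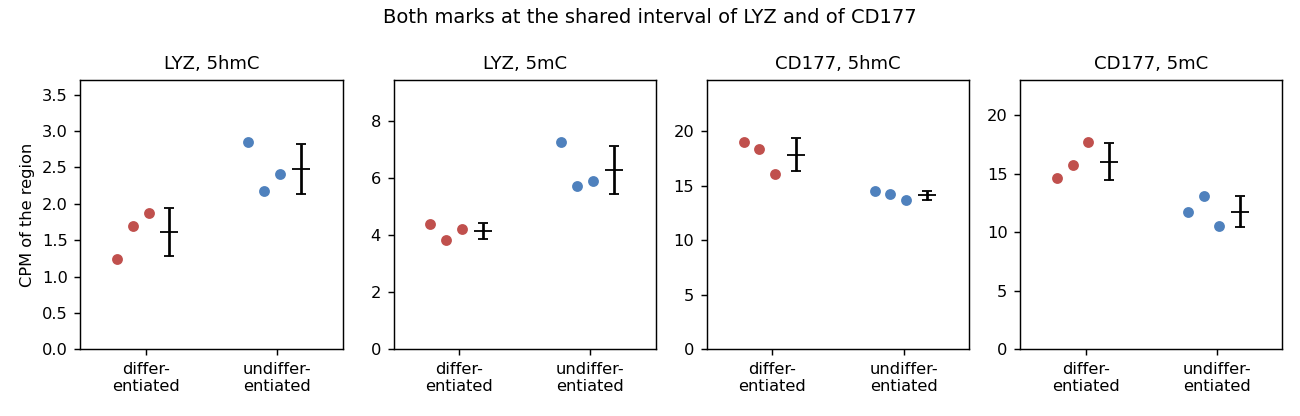
CPM of the LYZ upstream interval and of the CD177 region inside the gene for 5hmC and 5mC, each panel on its own axis, with points for the 3 differentiated (left) and 3 undifferentiated (right) libraries and bars for the mean and SD. All differentiated libraries are below the undifferentiated ones in both LYZ panels and above them in both CD177 panels.

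The LTF 5mC region (chr3:46489601-46490000, inside the gene) overlapped no 5hmC region. It had 3.38, 2.89 and 3.89 CPM in differentiated libraries, against 5.25, 4.51 and 5.19 CPM in undifferentiated libraries. All differentiated libraries were lower. Its fold change of −0.55 did not pass as a region (SE 0.223, adjusted p = 0.0797). Summed as a gene, with spread and adjustment over genes, it did (−0.49, adjusted p = 0.0345). That call ended without differentiated replicate 1 (−0.49) or 2 (−0.41) or undifferentiated replicate 1 (−0.45) or 3 (−0.47). Of all 44414 listed 5mC regions that share a base with a 5hmC region, 92.2% had fold changes of the same sign in both marks, so the agreement of sign at LYZ and CD177 is what most such regions showed.

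The size of every change between the states depends on how libraries are scaled. Against TMM scaling, library totals alone moved the median of all genes to −0.19 for 5hmC and −0.31 for 5mC, and TMM on the strongest 10% of regions moved them to −0.27 and −0.33. Under library totals 5hmC at OLFM4 was 0.38 and still passed, and at MMP9 (0.13) and CD177 (0.10) it no longer did, each of the 3 lying above that median of all genes. LYZ (−0.82) and MMP8 (−0.53) still passed as lower. With TMM on strong regions none of the 10 genes passed as higher by edgeR, 0 of 10, where 1 was higher at an unadjusted p under 0.05. There CEACAM8 passed as lower (−0.43, adjusted p = 0.0168) beside LYZ and MMP8. Since the shares of all genes called under these scalings are not given here, the counts are not results about the 10 genes.

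**Figure D5:**
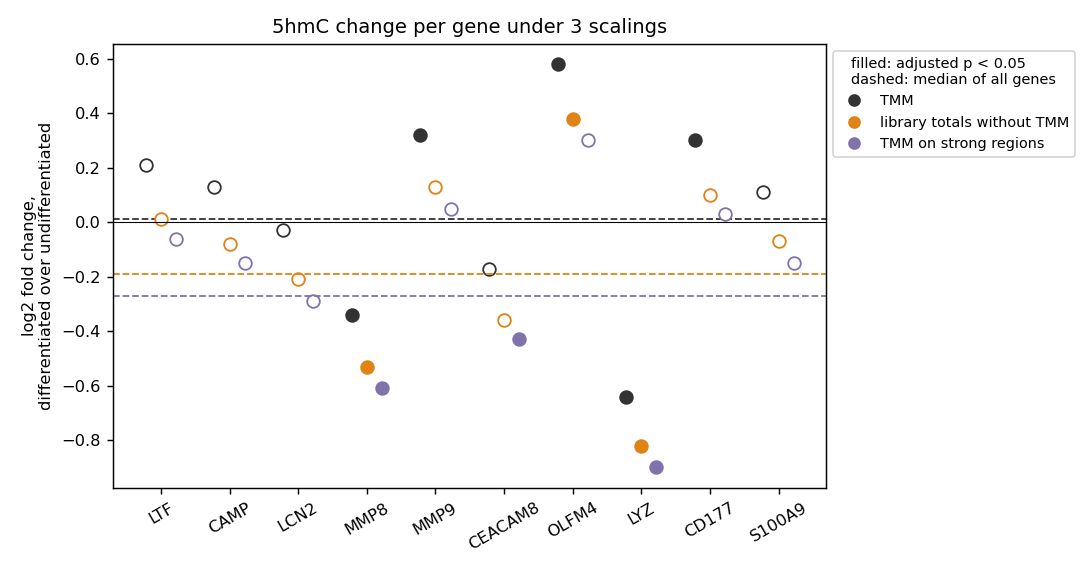
5hmC log2 fold change (differentiated over undifferentiated) per gene under 3 scalings, with filled points at an adjusted p under 0.05 and dashed lines for the median of all genes under each scaling. All 10 genes move down together with the median, from 0.01 under TMM to −0.19 and −0.27, and LYZ and MMP8 are the genes that pass under all 3.

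Other genes of granules and neutrophil maturation also moved in both directions, and their 5hmC counts stand beside 51.6% of all genes called, 25.7% higher and 25.8% lower. Of 28 further late granule and maturation genes with a 5hmC region (30 listed), 7 rose and 2 fell, with a median of 0.16. Their share of rises was near that of all genes and their share of falls was lower, a difference that was not tested. PTX3, which encodes a pattern recognition protein of specific granules (1.14, SE 0.236), and SLPI, a protease inhibitor gene (1.07, SE 0.244), rose most. CEACAM1, an adhesion gene (−0.38, SE 0.0847), and HPSE, the heparanase gene (−0.16, SE 0.0634), fell, HPSE not without differentiated replicate 1 (−0.12) or undifferentiated replicate 1 (−0.11) or 2 (−0.18). The 1 region of PTX3 was also assigned to another gene, and CEACAM1 had no value from regions assigned to 1 gene only. Without undifferentiated replicate 1 or 2 this list had 3 or 4 rises, and with TMM on strong regions 3 rises and 10 falls, where the median of all genes was −0.27. How many of all genes were called in those fits is not given here, so these counts are not results about the list. In the selected 5mC list, where 41% of genes rose and 43.2% fell, 5 of 9 of these genes rose, led by PADI4, the histone-citrullinating enzyme gene (0.75), and ABCA13, a transporter gene (0.66), and 3 fell, led by the surface protease gene ADAM8 (−0.92) and VNN2 (−0.90).

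Of 10 tested primary granule genes, which belong to the earlier promyelocyte, 2 rose in 5hmC and 3 fell, near the 51.6% of all genes called. MPO, the myeloperoxidase gene (−0.84, SE 0.132), and the serine protease gene PRSS57 (−0.25, SE 0.0629) fell most. AZU1, the azurocidin gene (0.28), and CD63, a granule membrane gene (0.22), rose, but under library totals 0 of the 10 rose by edgeR (0 at an unadjusted p under 0.05) and 6 fell. The median of all genes was −0.19 under library totals. Shares of all genes called under that scaling, by DESeq2's Wald test or with a library left out are not given here. Counts from those fits are therefore not results about the lists. AZU1 lost its call without differentiated replicate 1 (0.24) or undifferentiated replicate 2 (0.24), and CD63 without differentiated replicate 3 (0.19) or undifferentiated replicate 2 (0.19) or 3 (0.21). In the selected 5mC list, where 41% of genes rose and 43.2% fell, all 4 primary granule genes with a region fell by edgeR, led by MPO and SRGN (−0.65 each). SRGN lost its call without undifferentiated replicate 3 (−0.41), and DESeq2's Wald test called 1 of the 4 lower. Of markers of another cell type, 6 of 11 genes of monocytes and macrophages rose and 0 fell by edgeR, beside 25.7% of all genes higher and 25.8% lower (0 lower at an unadjusted p under 0.05, and 0 by DESeq2's Wald test), 4 rising without differentiated replicate 1 and 3 without undifferentiated replicate 1. CD68, a macrophage lysosome gene, had 0.70 (SE 0.264), which no longer passed without differentiated replicate 1 (0.70) or undifferentiated replicate 1 (0.34) or 3 (0.68), and FCGR1A, an Fc receptor gene, had 0.64 (SE 0.172), lost without undifferentiated replicate 1 (0.58). The regions of CD68 and FCGR1A were each also assigned to another gene. From regions assigned to 1 gene only, 4 of 9 monocyte and macrophage genes rose by edgeR and 0 fell (0 lower at an unadjusted p under 0.05). DNA marks at those genes do not count monocytes, and the part of such cells in the values of LYZ and the other members was not tested.

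The gene clusters that hold S100A9, MMP8, CEACAM8 and CD177 were mixed too, counted here with those members included. In the S100 cluster 5 of 14 genes rose and 2 fell, beside 51.6% of all genes called, with S100A11 (0.61) and S100A10 (−0.71), members of the same family of calcium-binding proteins, moving most, and 1 rose without differentiated replicate 3. S100A8, the partner of S100A9, had 0.26 (adjusted p = 0.172), with all differentiated libraries above the undifferentiated ones. In the MMP cluster 1 of 7 genes rose and 2 fell: MMP3, the stromelysin gene, rose (0.50), but not without differentiated replicate 3 (0.24) or undifferentiated replicate 1 (0.54) or 2 (0.42), and MMP8 and the macrophage elastase gene MMP12 (−0.90) fell. MMP12 no longer passed without differentiated replicate 1 (−0.61) or undifferentiated replicate 1 (−0.82). Of 11 CEACAM and neighbouring genes 2 rose, CD177 and CEACAM20 (0.28), and CEACAM1 fell. These counts moved with the scaling, as did the median of all genes (−0.19 with library totals and −0.27 with TMM on strong regions). The shares of all genes called higher and lower under those scalings are not given here, so the counts below are not results about the lists. With library totals 3 of the further late granule genes rose and 3 fell, 2 monocyte and macrophage genes rose and 0 fell (0 lower at an unadjusted p under 0.05), and 1 gene of the S100 cluster rose and 2 fell. Under the same scaling 3 MMP and 2 CEACAM genes fell and 0 rose in either list by edgeR. With TMM on strong regions 5 MMP and 5 CEACAM genes fell and 0 rose in either, 1 S100 gene rose and 2 fell, and 1 monocyte and macrophage gene rose and 1 fell. In the MMP and CEACAM lists 0 genes were higher at an unadjusted p under 0.05 with either scaling.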

How the data were processed

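MeDIP-seq and hMeDIP-seq libraries of HL-60 cells were compared between differentiated and undifferentiated cells, 3 biological replicates each, as the labels give them. The submitters' processing notes name SICER 1.1, edgeR 2.11, bedtools 2.17.0, BWA and SAMtools 0.1.18 with hg19, without a role for each. The authors deposited unnormalized read counts per region for the 6 libraries of each mark, in regions on a 200-base grid. The deposited tables also hold a log2 fold change (undifferentiated over differentiated, from the counts) and a p-value per region, and distances to genes, gene starts and CpG islands per the file headers. Neither the labels nor the headers name the annotation behind these or say whether regions were called on pooled libraries.

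Of 327949 listed 5hmC regions, 18 lacked a count and were left out. The largest deposited p-value in the 5mC table was 0.0165 at an adjusted p of 0.0826, which implies 328588 tests, which was the number of tests used to adjust each 5mC region's p-value. The 5mC genes were adjusted over the 12637 tested. Tests on the counts used edgeR 4.0.16 under R 4.3.3 (filterByExpr, TMM, quasi-likelihood test, Benjamini-Hochberg adjustment over all regions or genes), and adjusted p-values are from it unless another test is named. Where a region was assigned to more than 1 gene it entered every sum. CPM are counts scaled to the TMM-adjusted library total of the region table or of the gene table, so values per region and per gene are not on the same scale. Standard errors (SE) follow from each fold change and its F statistic. DESeq2 1.42.0 and limma 3.58.1 were alternatives. The scripts were checked on simulated counts. All 10 genes are described, and for each further list the largest rises and falls past the threshold were named by rule. Members and lists were chosen with earlier results of these data known. Replicates with the same number did not deviate together (correlations of −0.181 to 0.0153), so they were not paired. Exons and introns were not told apart. Promoter windows came from RefSeq tables of GRCh38.p14, and no coordinates were carried between builds.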

Additional observations from a re-analysis of the deposited data

How the results depend on the processing

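Over the single regions, genes and start-side comparisons of the 10 genes, 390 of 521 recomputed values kept their direction and side of the threshold, 88 lost the call, 11 gained it and 32 changed sign. LYZ at gene level, the strongest OLFM4 region, the upstream S100A9 region and the LTF start-side shift kept their calls in every alternative run for them. The LTF comparison had been chosen after its region values were seen. The cause of the other changes was not tested. The lowest count of a member region in a library was 6, and a region that did not pass is not shown to be unchanged at such depth.

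For 5hmC regions, DESeq2's Wald test called 66484 in all, and 3 of the 24 higher and 0 lower. Library totals gave 3 higher, with 164354 regions called in all, and TMM on strong regions 2, with 167827. Leaving out 1 library gave 102900 to 168726 regions, with 3 to 7 of the 24 higher and 2 to 7 lower. For 5hmC genes, library totals gave 1 higher and TMM on strong regions 0 higher, DESeq2's Wald test 1 lower, and regions within 2000 bases of the start 4915 genes and 1 higher of 5. Leaving out 1 library gave 1 to 3 higher and 1 to 2 lower of the 10. The share of all 5hmC genes called is not given for these fits, so the counts are not results about the 10 genes.

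For 5mC regions, DESeq2's Wald test called 3408 in all, with 0 higher and 0 lower of the 3 (1 and 1 at an unadjusted p under 0.05). Library totals and TMM on strong regions each gave 0 higher and 2 lower, and adjustment over the listed regions 2 lower. Leaving out 1 library gave 29080 to 30539 regions, with 0 to 1 higher and 0 to 1 lower. For 5mC genes, library totals and TMM on strong regions gave 0 higher, DESeq2's Wald test 0 lower, regions within 2000 bases of the start 2171 genes with 0 higher and 1 lower, and gene bodies 1 lower. Leaving out 1 library gave 0 to 2 lower. The share of all 5mC genes called is likewise not given for these fits.

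The replicate block called 140394 regions and 8844 genes for 5hmC and 47162 regions and 10644 genes for 5mC. With it the start region of CD177 (0.36) and the upstream region of LCN2 (−0.54) lost their calls, no other call of a member changed, and LCN2 as a gene stood at 0.0025.

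Changes of sign, none of them past the threshold, were these. With library totals CAMP stood at −0.08 as a region and as a gene, the MMP9 region at 44640201 at −0.18 and S100A9 at −0.07. With TMM on strong regions the CAMP region and gene stood at −0.15, the LCN2 region inside the gene at −0.02, the MMP9 region at 44640201 at −0.26, LTF at −0.06 and S100A9 at −0.15. From gene bodies alone LCN2 was 0.24 and S100A9 −0.34. With 1 library left out the CAMP region ranged from −0.03 to 0.25, CAMP from −0.06 to 0.24, LCN2 from −0.17 to 0.15, the upstream MMP8 region from −0.20 to 0.07, the MMP9 region at 44640201 from −0.18 to 0.16 and the one at 44643801 from −0.35 to 0.07. The start-side difference of LYZ ranged from −0.29 to 0.13 and that of CD177 from −0.03 to 0.10, and limma on the log2 ratio gave −0.05 for LYZ.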

Other observations

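Flanking regions lay on either side of a member, outside the rule, within 50000 bases by the deposited distance and with the member as the nearest gene. For 5hmC they numbered 30, of which 10 rose and 6 fell, beside 27% and 23.3% of all 5hmC regions. For 5mC they numbered 6, of which 4 rose and 2 fell, in a list selected by p-value of which 72.7% was called. Those of LTF could lie inside the gene if it began at a farther start. Around LYZ, 3 of 5 flanking 5hmC regions fell, the farthest 28935 bases away (−0.89, adjusted p = 0.0015). A region only 188 bases from LYZ (chr12:69748201-69749000) went the other way, with 5.35, 5.37 and 5.26 CPM in differentiated libraries, against 4.01, 3.86 and 4.53 CPM in undifferentiated libraries (0.37, SE 0.15, adjusted p = 0.0331). It lay just past the last region inside LYZ, which fell.

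Some flanks changed in both marks. A region 19116 bases from MMP8 (chr11:102614801-102615800) rose in 5hmC (0.95, adjusted p = 0.00301) and in 5mC (0.91, adjusted p = 0.0203), while MMP8 itself fell in 5hmC. OLFM4 had an interval 12677 bases from the gene (chr13:53589601-53590200) that rose in both (0.58 in 5hmC and 0.83 in 5mC). Upstream of CAMP, whose own region did not pass, a region 9238 bases away (chr3:48254001-48255600) fell in 5hmC (−0.43), and the 5mC region over it fell too (−0.44). The 6 flanking 5mC regions all overlapped a 5hmC region of the same sign, as did 92.2% of all overlapping listed 5mC regions.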
